A study of Mus musculus with 40 samples.

Results

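Usp17la, Usp17lb, Usp17lc, Usp17ld, Usp17le, Tdpoz1, Tdpoz3, Tdpoz4, Tcstv1 and Tcstv3 belong to 3 multicopy mouse gene families that are transcribed in the 2-cell embryo. The 10 genes were taken by symbol from deposited RNA-seq count tables, and all 10 were found in each of 3 tables. The table of genotypes holds 55276 gene symbols in all. The libraries were made from E14tg2a, an established mouse embryonic stem cell line, and the study asks how loss of the corepressor CtBP alters a 2-cell-like gene program and which part of that change needs Dux.

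The genotype table has 2 libraries in each of 6 groups. These are unmodified cells (WT), cells lacking both Ctbp genes (CtbpDKO), cells lacking Dux (DuxKO), cells lacking both Ctbp genes and Dux (Ctbp_DuxTKO), cells lacking Dppa2 (Dppa2KO), and CtbpDKO cells that also lack Dppa2 (DKO_Dppa2_KO). The last pair is titled Dppa2_DuxTKO but described as DKO_Dppa2_KO. The description was followed here. Ctbp1 had 4 and 0 counts in that pair against 1911 and 2109 in WT. The Pramel7 table has 4 WT libraries (replicates 3 to 6) and 2 libraries each of DuxKO, Pramel7 knockout (P7KO), Pramel7 overexpression (P7OE) and Pramel7 overexpression in DuxKO cells (DuxKO_P7OE). The time course has 2 libraries on each of days 0, 3, 9, 12 and 18, all of CtbpDKO genotype and all with the word Dox in the title, with no agent, dose or schedule explained. Growth medium was the same by the labels, GMEM with serum and LIF. Clone numbers, the promoter behind the Pramel7 overexpression and the origin of replicates in separate cultures are not given in the labels, so p-values measure the spread between these libraries, which may be technical.

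The Usp17l genes (also called Dub genes) encode deubiquitinating enzymes, which remove ubiquitin from proteins and were first described as cytokine-induced genes of blood cells. The Tdpoz genes encode relatives of the ubiquitin ligase adaptor Spop that combine a TRAF-like domain with a POZ domain. The Tcstv genes encode small proteins of the 2-cell embryo that have been linked to telomere lengthening in embryonic stem cells. In stem cell cultures a rare, transient 2-cell-like state carries transcripts of these families together with Zscan4. Its best known activator is the transcription factor Dux, whose own gene is activated by Dppa2 and Dppa4. CtBP proteins are corepressors recruited by DNA-binding factors, and Pramel7 is a leucine-rich protein of preimplantation embryos.

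The families sit in 3 clusters of copies, with coordinates here from the RefSeq gene table of assembly GRCm38.p6. The Usp17l genes lie on chromosome 7 in 2 stretches, with Usp17ld at chr7:103250086-103252505 and Usp17lc at chr7:103416696-103419174, and with Usp17le at chr7:104767961-104777470, Usp17lb at chr7:104840257-104842583 and Usp17la at chr7:104857016-104862667. On chromosome 3 are Tdpoz1 (chr3:93669333-93676283), Tdpoz4 (chr3:93796398-93797510) and Tdpoz3 (chr3:93826020-93827117). Tcstv1 (chr13:119893387-119894785) and Tcstv3 (chr13:120316862-120318261) are on chromosome 13. RefSeq promoter windows, which run from 250 bases before to 50 after the annotated start, were at hand for 6 of the 10 genes.

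The Usp17l copies are shown first. The bases shown lie before the annotated start, so their likeness does not measure how easily reads are exchanged between the copies. The same stretch of 92 bases before the start is given for 4 copies, 5′ to 3′ on each gene's own strand, with CCACACCC, ATTGGC and the TATAAA or TTTAAA box in capitals. The 4 stretches are chr7:104856887-104856978 on the plus strand (Usp17la), chr7:104842606-104842697 on the minus strand (Usp17lb), chr7:103416525-103416616 on the plus strand (Usp17lc) and chr7:103252607-103252698 on the minus strand (Usp17ld).
Usp17la: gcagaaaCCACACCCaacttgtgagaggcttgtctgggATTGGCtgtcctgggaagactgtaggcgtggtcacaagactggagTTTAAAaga
Usp17lb: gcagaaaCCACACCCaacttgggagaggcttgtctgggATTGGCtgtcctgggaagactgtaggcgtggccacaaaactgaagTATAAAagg
Usp17lc: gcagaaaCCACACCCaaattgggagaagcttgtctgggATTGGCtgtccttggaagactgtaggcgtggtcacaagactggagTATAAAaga
Usp17ld: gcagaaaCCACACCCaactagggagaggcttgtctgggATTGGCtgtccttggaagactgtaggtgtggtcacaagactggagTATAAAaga

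Compared position by position, these stretches were identical at 85 to 88 of 92 bases, or 92.4% to 95.7%. Usp17lb, Usp17lc and Usp17ld carry TATAAA at 31, 88 and 110 bases before the annotated start, and Usp17la carries TTTAAA at 46 bases. Searched on both strands, TATAAA was in 13.6% of 32851 mouse promoter windows of this length, TTTAAA in 13.2%, CCACACCC in 3.56% and ATTGGC in 14.7%. CG pairs were few, at 0 in the windows of Usp17ld and Tdpoz4 and 1 in each of the other 4, against a median of 7 over all windows.

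Tdpoz1 is shown because its upstream stretch is shared in full with another copy. The 120 bases at chr3:93676331-93676450, minus strand, are identical at 120 of 120 positions to the same stretch of Tdpoz9. In capitals are AAACACACACCTTTAA, the longest stretch that occurs 2 times in this promoter window (it is in 4 of the 32851 windows), and TATATAA, which is in 3.24% of windows.
Tdpoz1: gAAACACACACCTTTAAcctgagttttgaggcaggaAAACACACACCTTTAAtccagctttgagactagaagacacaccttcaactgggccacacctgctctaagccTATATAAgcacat

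Libraries of the genotype table hold 19944644 to 36025046 counts. Those of the Pramel7 table hold 10123058 to 30135341, and those of the time course 16674526 to 30169626. A gene at 3 counts, used here as the floor of a library, stood at 0.0826 to 0.289 CPM (counts scaled to the size of the library). The 6 embryonic stem cell markers were above the floor in all groups. The deleted genes fell as labelled for Ctbp1, while Ctbp2 kept 729 to 1568 counts in the 3 groups labelled as lacking both Ctbp genes, against 6293 and 6591 in WT. Dppa2 kept 1208 and 1027 counts in Dppa2KO against 1707 and 1868 in WT, and 426 and 464 in DKO_Dppa2_KO. Dux (Duxf3 in the tables) had 1 and 0 counts in WT, so that its level does not check the DuxKO label. Pramel7 had 2 to 4 counts in the WT libraries of the Pramel7 table and 431 to 588 in the 4 overexpressing libraries. It had 0 and 3 counts in P7KO, so that its level does not check the P7KO label.

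Not all 10 genes could be tested in each table. A filter on low counts asked for enough counts in as many libraries as the smallest group holds, whichever group they belong to. It left 7 of the 10 to be tested in the genotype table (all but the Tdpoz genes). In the Pramel7 table it left 5 (the Usp17l genes), and in the time course 8 (all but Tdpoz1 and Tdpoz3). A gene that is at 0 in most groups passes such a filter only through the group where it is high. Counts below therefore describe the genes that were measurable. A gene is called where its adjusted p is below 0.05 in the quasi-likelihood test of edgeR, with p-values adjusted after Benjamini and Hochberg over all genes tested in that table.

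The first comparison asks what loss of both Ctbp genes does to these families. In CtbpDKO cells transcripts of all 3 families appeared that were at or near 0 in WT. The 5 Usp17l genes together reached 641 and 700 counts, or 19.6 ± 0.0049 CPM (SD, n = 2), against 4 and 6 counts in WT. Each of 7 tested genes was called higher, where 14.7% of all 21193 tested genes were called higher. These 7 genes had 0 to 2 counts in every library of the other groups, so they passed the filter only through CtbpDKO. A call higher there was thus favoured in advance, and the share of all tested genes is not a like comparison. The median log2 fold change of the 7 genes was 6.56, beside 0.01 over all tested genes.

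Usp17le, the copy with the most counts, had 219 and 235 counts in CtbpDKO and 2 and 2 in WT. Its level was 6.62 ± 0.08 CPM (SD, n = 2) and its log2 fold change 6.56 (SE 0.52, adjusted p = 1.54e-05), with a ratio of pooled counts of 100 (95% counting interval 38.8 to 369). Both libraries of one group were far above both of the other. Usp17lc, first named Dub2, had 151 and 167 counts in CtbpDKO and 0 and 2 in WT. It reached 4.64 ± 0.04 CPM with a log2 fold change of 6.96 (SE 0.77, adjusted p = 4.99e-05). The libraries of a group were closer to each other in both genes than any difference between the groups.

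Usp17lb had 91 and 116 counts in CtbpDKO against 0 and 2 in WT, and Usp17ld had 104 and 100 against 2 and 0. Their ratios of pooled counts were 91.3 (25.0 to 759) and 90.0 (24.6 to 748), with intervals that are wide because WT holds 2 counts in all. Usp17la, first named Dub1, had 76 and 82 counts in CtbpDKO and none in WT, which makes it at least 23.2-fold higher against 3 counts per library (adjusted p = 0.00076). The counts assigned to each of the 5 copies were thus higher, at 2.30 to 6.62 CPM on average. How reads shared between copies were assigned is not given, so a rise of each copy by itself is not shown.

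The Tcstv genes rose from 0. Tcstv3 had 45 and 23 counts in CtbpDKO, at least 10.2-fold above WT with adjusted p = 0.00635. Tcstv1 had 12 and 14 counts, at least 3.82-fold above WT with adjusted p = 0.0237. These calls are the weaker ones, since Tcstv3 missed the threshold without WT replicate 1, WT replicate 2 or CtbpDKO replicate 1 (adjusted p = 0.0507 to 0.0671), as did Tcstv1 without either WT library (0.141 and 0.142) and with no filter on low counts (0.105).

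The Tdpoz genes of the 10 were present in CtbpDKO at counts too low for the filter. Tdpoz5, a copy outside the 10, had more counts and is given below. Tdpoz4 had 9 and 19 counts and Tdpoz3 had 8 and 12, all 0 in WT, which makes them at least 4.06-fold and 2.92-fold higher. With no filter on low counts their adjusted p was 0.0736 and 0.208, so neither was called. Tdpoz1 had 0 and 1 counts, within the floor. Over the 10 genes, 9 had both CtbpDKO libraries above both WT libraries, as did 33.1% of all tested genes. DESeq2 on the same genes called 3 of the 7, namely Usp17la, Usp17lc and Usp17le, with adjusted p = 0.131 to 0.339 for the other 4 and the same direction in each.

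**Figure D1:**
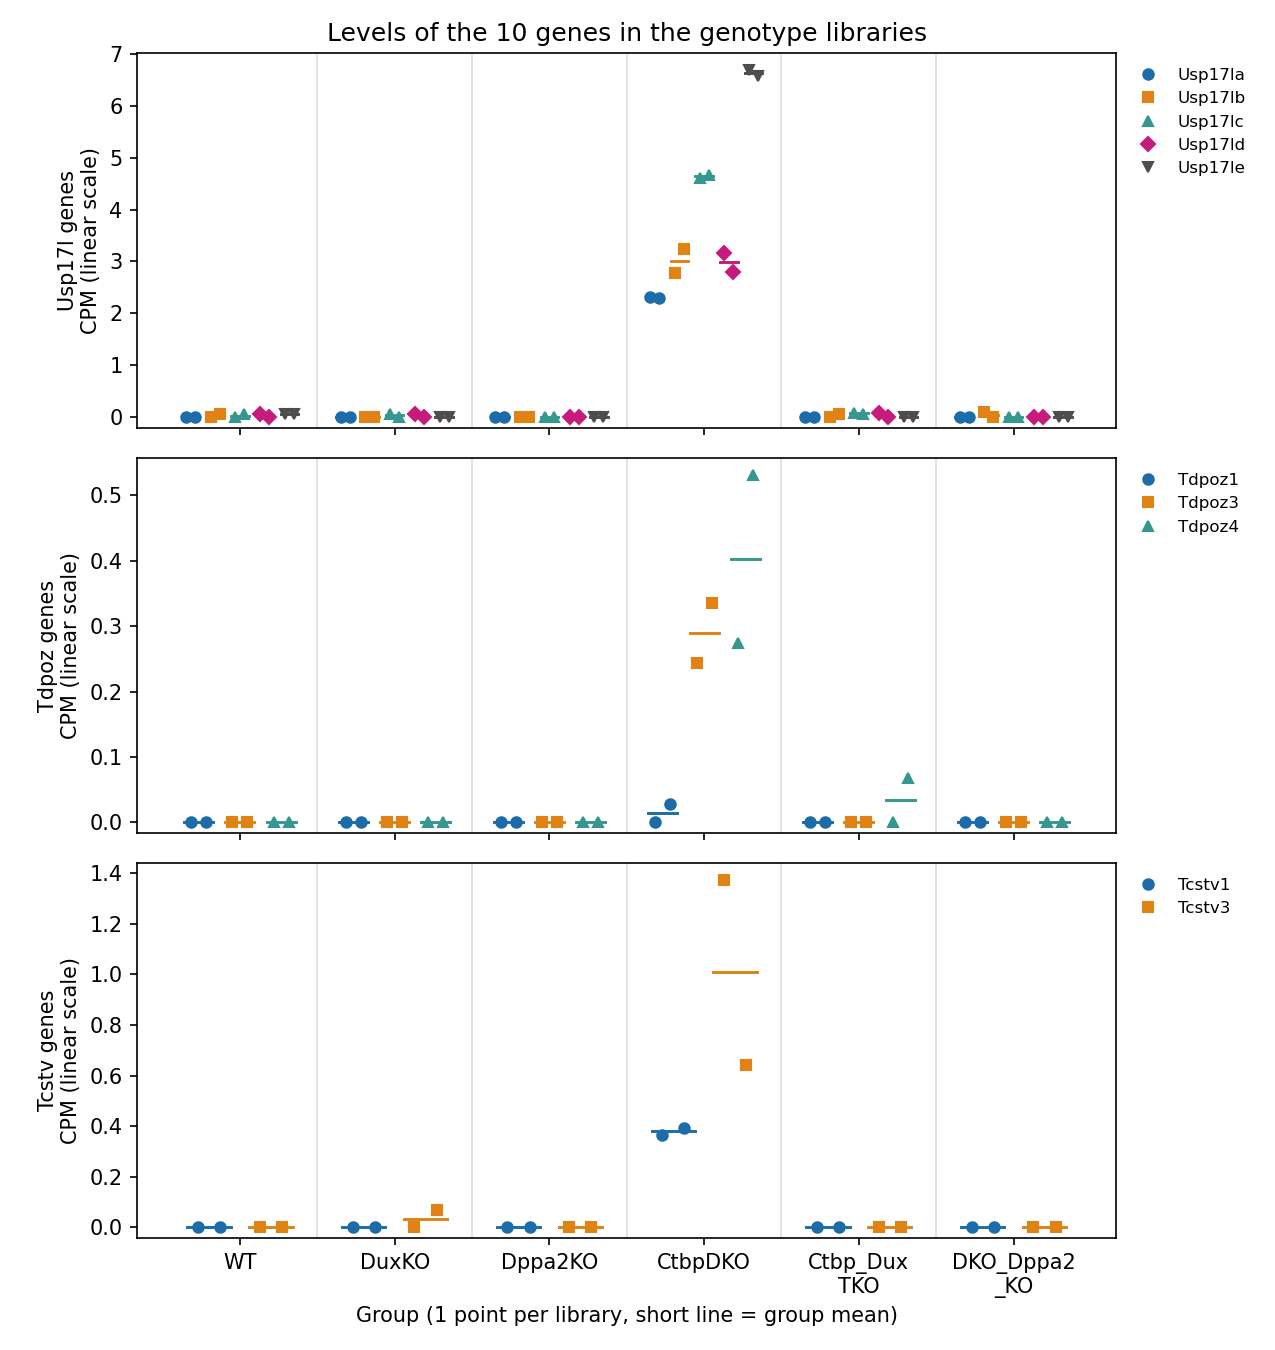
Level of each gene in CPM on a linear scale (y axis, a different range per family) in the 12 genotype libraries, with 1 point per library and a short line at the group mean. Points of the Usp17l genes sit at 2.29 to 6.68 CPM in CtbpDKO and at 0 to 0.100 CPM in the other 5 groups.

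Of 52 genes listed for the 2-cell program, which include none of the 10, 41 were tested and 34 were called higher in CtbpDKO, with a median log2 fold change of 5.52. The list was chosen with earlier results of these data known, and it includes Dux and Dppa2. Listed genes that were low in all other groups, such as the Zscan4 genes, passed the filter only through CtbpDKO. A call higher was thus favoured in advance for them. Dux itself had 40 and 24 counts in CtbpDKO. The 6 Zscan4 genes, used as a marker of the 2-cell-like state, had from 88 (Zscan4d) to 487 (Zscan4f) counts per library there and 0 to 15 (Zscan4f) in WT. In bulk RNA, more cells in a state and more RNA per cell cannot be told apart. Marker sums of some other cell types moved too. That of 5 fibroblast markers was 11.3 to 11.6 CPM in CtbpDKO, with 3 of them above the floor and Twist2 at 0. In WT it was 1.74 to 2.25 CPM, with 1 above the floor. That of 5 primitive endoderm markers was 17.3 to 17.8 against 10.5 to 10.6. Sums for trophoblast (14.8 to 16.3 against 13.6 to 15.1) and germ cells (9.94 to 13.3 against 8.70 to 9.83) differed less. The sum over 4 B-cell markers was 4.02 to 4.06 against 1.07 to 2.15, with Ptprc at 0 in CtbpDKO and 2 of the 4 above the floor in each group. In Ctbp_DuxTKO the fibroblast sum was 7.33 to 8.73 CPM and the endoderm sum 44.6 to 48.6. Their part in the result was not tested.

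The next comparison asks whether the rise in CtbpDKO needs Dux. In cells that lacked Dux as well as both Ctbp genes, the transcripts were back at the floor. Usp17le and Usp17la had 0 counts in both Ctbp_DuxTKO libraries, at least 57.1-fold and 19.9-fold below CtbpDKO. Usp17lc had 2 and 2 counts, Usp17lb 0 and 2, and Usp17ld 2 and 0, or 0.0164, 0.0126 and 0.0128 of the CtbpDKO level. In all, 6 of 7 tested genes were called lower, where 4.54% of all tested genes were called lower. All 7 passed the filter only through CtbpDKO, so a fall from it was favoured in advance.

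Adjusted p ranged from 0.000113 for Usp17le to 0.0232 for Tcstv3 among the 6 genes. Tcstv3 had 0 counts in both libraries, at least 8.69-fold lower, but missed the threshold when any of the 4 libraries was left out (adjusted p = 0.0721 to 0.178). Tcstv1, also at 0, was at least 3.26-fold lower and did not pass (adjusted p = 0.0639). Tdpoz4 had 0 and 2 counts and Tdpoz3 and Tdpoz1 had none, where the filter left them untested. DESeq2 called 3 of the genes lower, the same 3 Usp17l copies that it called in CtbpDKO. Of the 2-cell list 25 of 41 were called lower, and the list's median log2 fold change was -4.24. That list includes Dux itself, and a fall was favoured in advance for those of its genes that passed the filter only through CtbpDKO.

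The next comparison takes away Dppa2 from the double knockout, and shares its CtbpDKO libraries with the one before. The title of the pair names Dux as well, and Dux had 0 counts in both of its libraries against 40 and 24 in CtbpDKO, so that loss of Dppa2 and loss of Dux cannot be told apart here. Usp17la, Usp17lc, Usp17ld, Usp17le, the Tcstv genes and the Tdpoz genes had 0 counts in both DKO_Dppa2_KO libraries, and Usp17lb had 2 and 0. Usp17le was at least 47.8-fold lower (adjusted p = 6.50e-05), Usp17lc at least 33.4-fold (0.000219), Usp17ld at least 21.5-fold (0.00147), Usp17la at least 16.6-fold (0.00285) and Tcstv3 at least 7.27-fold (0.0172). Here 6 of 7 tested genes were called lower, against 9.67% of all tested genes. As above, the 7 passed the filter only through CtbpDKO, which favoured a fall in advance. Tcstv1 was at least 2.73-fold lower and just missed (adjusted p = 0.0519).

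Tcstv3 missed the threshold there when any of the 4 libraries was left out (adjusted p = 0.0616 to 0.119), and DESeq2 called 3 of the 7 genes. In the 2-cell list 30 of 41 genes were called lower, and the list's median log2 fold change was -5.72. Dppa2 and Dux are on that list, and a fall was again favoured in advance for genes that passed the filter only through CtbpDKO. Marker sums differed between these groups as well. They were 0.847 to 1.15 CPM in DKO_Dppa2_KO against 9.94 to 13.3 in CtbpDKO for 4 germ cell markers (Tex101 at 0), and 4.01 to 4.62 against 11.3 to 11.6 for the fibroblast markers (Col3a1 and Twist2 at 0). For the primitive endoderm markers they were 7.56 to 7.58 against 17.3 to 17.8, and for 5 trophoblast markers 30.5 to 31.4 against 14.8 to 16.3. Their part in the result was not tested. The DKO_Dppa2_KO libraries hold 19944644 and 26905147 counts, the first being the smallest total of this table.

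With Ctbp intact, the families were at the floor in the genotype table with or without Dux or Dppa2. DuxKO cells had 0 or 2 counts of each gene and Dppa2KO cells had 0 counts of all 10, where WT cells had 0 to 2. By edgeR's quasi-likelihood test 0 of 7 genes were called in DuxKO against WT (17.5% of all tested genes were called in either direction) and 0 of 7 in Dppa2KO against WT (16.4%). At an unadjusted p below 0.05 there was 1 gene in each, Usp17le both times, and DESeq2 called 0. At 3 counts or fewer on both sides a difference was not detectable at this depth.

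The same holds where Ctbp was removed in a Dux or Dppa2 mutant background. Ctbp_DuxTKO against DuxKO gave 0 of 7 calls, while 41% of all tested genes were called in either direction. DKO_Dppa2_KO against Dppa2KO gave 0 of 7 calls, with 30.4% of all tested genes called. No gene of the 7 had an unadjusted p below 0.05 in either, and DESeq2 called 0. In these backgrounds the 10 genes stayed within the floor of 3 counts in all libraries.

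The difference between these effects could be tested for few of the genes. The interaction of Ctbp and Dux loss was called for 1 of 7 genes, against 9.64% of all tested genes called in that direction. This was Tcstv3 (adjusted p = 0.0434), and the call rests on 2 counts in a single DuxKO library. WT and Ctbp_DuxTKO were both at 0, so the size of its interaction is no measurement: the fit gave -11.07 on the log2 scale, and -4.58 with a prior count of 2. The call was lost in 7 of 8 cases of leaving out 1 library (adjusted p = 0.0728 to 1), all but the one without DuxKO replicate 1. Usp17lc and Usp17ld had log2 interactions of -5.87 (SE 2.00, adjusted p = 0.0617) and -6.14 (SE 2.37, adjusted p = 0.0928). The other 4 also had a group or groups at 0, and their SE was 16.2 or more. The interaction of Ctbp and Dppa2 loss was called for 0 of 7 genes, where 8.23% of all tested genes were called, with 0 at an unadjusted p below 0.05 and 1 call by DESeq2. Without filtering on low counts, or by DESeq2, the interaction with Dux was called for 3 genes, and DESeq2 gave Tcstv3 no adjusted p.

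The Pramel7 table asks whether overexpression of Pramel7 acts on the same genes. In P7OE cells all 5 Usp17l genes were called higher than in WT, where 11% of all 20161 tested genes were called higher. All but Usp17le had 0 to 9 counts in each library of the other groups. They passed the filter only through P7OE, so a call higher there was favoured in advance. The sum of the 5 genes was 337 and 124 counts, or 9.21 ± 2.35 CPM (SD, n = 2), against 0.77 ± 0.30 CPM in WT (n = 4). The median log2 fold change was 3.81, beside -0.01 over all tested genes. The WT libraries were not equally alike. Between raw counts of 2 libraries, the chi-square per gene was 34.4 for WT replicates 3 and 4 and 81.0 to 166 for the other WT pairs. It was 24.0 to 46.1 within the other groups of this table.

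Usp17le had 116 and 42 counts in P7OE and 14, 11, 14 and 0 in WT replicates 3 to 6. That is 3.15 ± 0.84 CPM against 0.38 ± 0.26, a ratio of pooled counts of 8.48 (5.94 to 12.4) and a log2 fold change of 3.02 (SE 0.69, adjusted p = 0.00963). WT replicate 6 alone had none. Usp17lc had 60 and 24 counts in P7OE against 2, 3, 0 and 2 in WT, a ratio of 25.1 (11.7 to 64.4) and a log2 fold change of 4.49 (SE 0.71, adjusted p = 0.00149). For both genes the groups did not overlap in CPM.

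Usp17lb had 69 and 32 counts against 2, 6, 0 and 6 in WT, with a ratio of 15.1 (8.60 to 28.6). Usp17ld had 35 and 14 against 0, 6, 0 and 0, with a ratio of 17.1 (7.32 to 48.8). Usp17la had 57 and 12 against 2, 3, 4 and 2, with a ratio of 13.1 (6.90 to 27.5). The number of calls depends on the P7OE libraries, since without replicate 1 only Usp17lc was called, and without replicate 2 there were 3 calls. Usp17ld also missed the threshold without WT replicate 3 or 5 (adjusted p = 0.0549 and 0.0630). DESeq2 called 3 of the 5, with adjusted p = 0.153 for Usp17lb and 0.564 for Usp17ld.

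The other families were low in P7OE. Tcstv3 had 15 and 4 counts against 0, 1, 0 and 0 in WT, a ratio of 39.8 (6.32 to 1653), and adjusted p = 0.0540 with no filter on low counts. Tcstv1 had 2 and 3 counts, Tdpoz3 8 and 1, Tdpoz1 0 and 2, and Tdpoz4 none. Tdpoz4 was the one gene of the 10 that was at 0 in P7OE while WT libraries held up to 2 counts, and both sides are within the floor. The sum of 5 primitive endoderm markers was 27.7 to 28.4 CPM in P7OE and 3.71 to 4.23 in WT. It was 26.8 to 26.9 CPM in DuxKO_P7OE. Its part in the result was not tested.

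**Figure D2:**
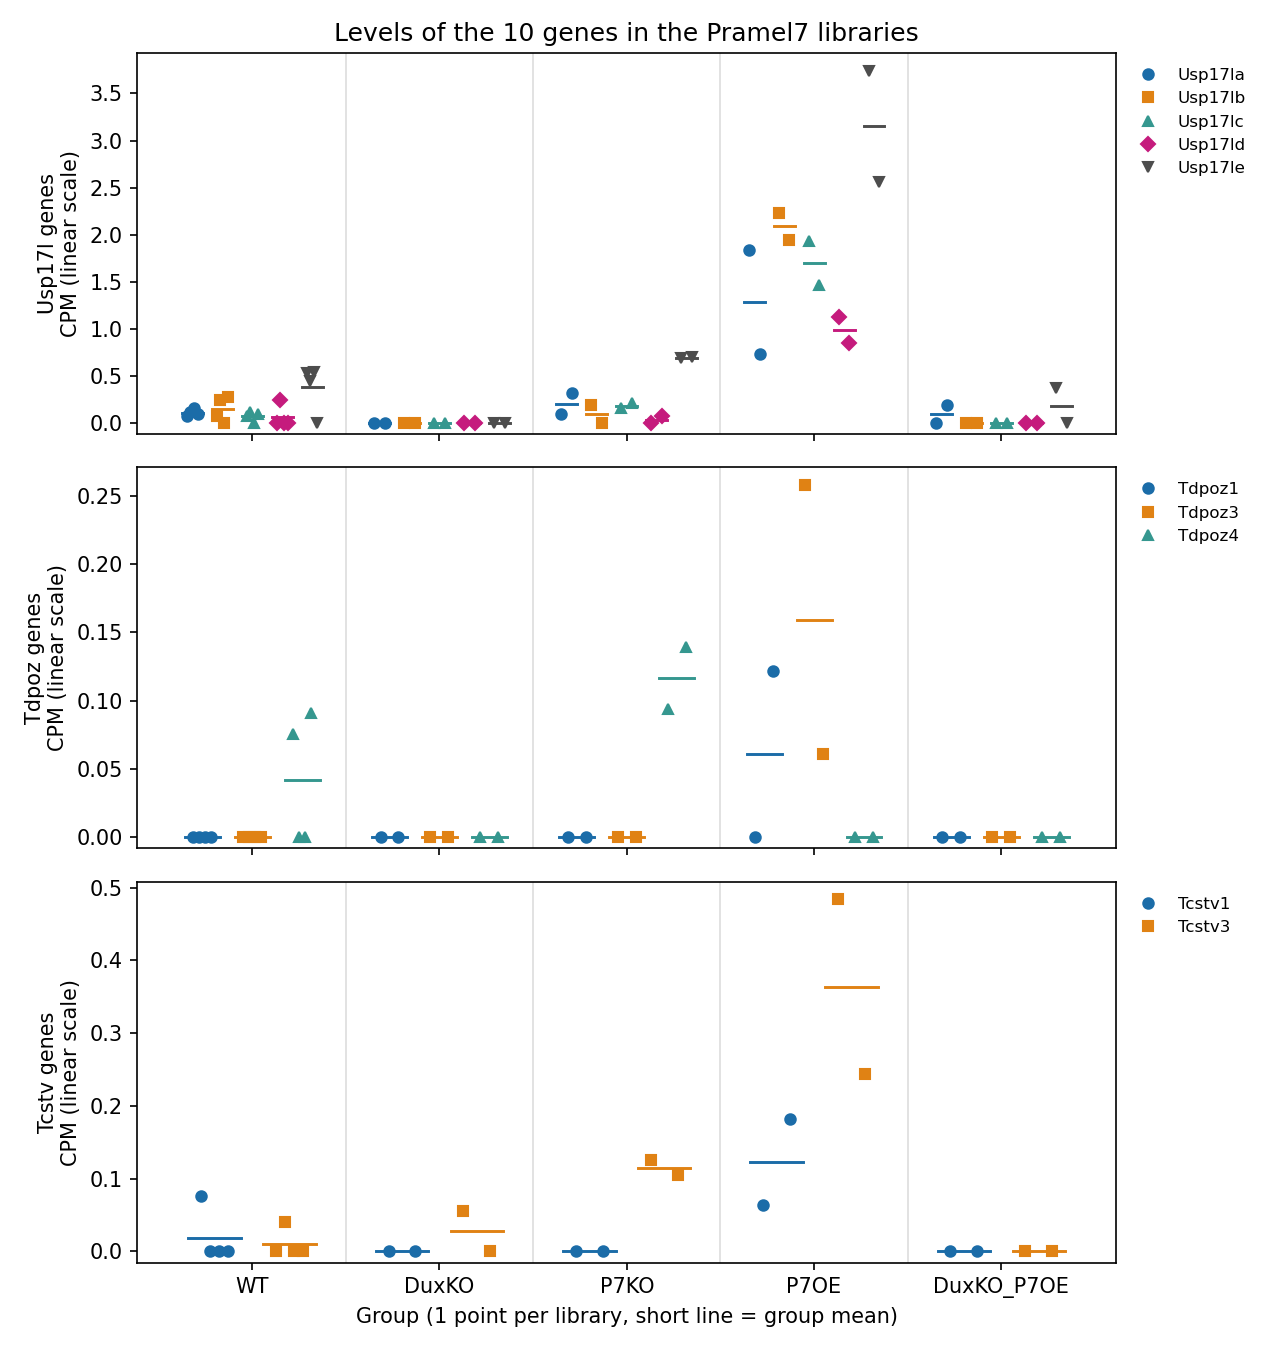
Level of each gene in CPM on a linear scale (y axis, a different range per family) in the 12 libraries of the Pramel7 table, with 1 point per library and a short line at the group mean. The Usp17l points of P7OE sit above those of the other 4 groups, and Usp17le reaches 2.56 and 3.74 CPM in P7OE.

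In DuxKO cells that overexpressed Pramel7, the Usp17l genes were near 0 although Pramel7 had 537 and 588 counts. Usp17le had 4 and 0 counts, Usp17la had 0 and 2, and the other 8 genes had none. Against P7OE, Usp17lb was at least 7.40-fold lower, Usp17lc at least 6.02-fold and Usp17ld at least 3.51-fold, and Usp17le stood at 0.0564 of its P7OE level (0.0152 to 0.147). By edgeR's quasi-likelihood test 0 of 5 genes were called, with adjusted p = 0.153 to 0.326. That comparison called 0.0298% of all tested genes, or 6 genes in all, and all 5 Usp17l genes had an unadjusted p below 0.05.

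The DuxKO_P7OE libraries are the shallowest of the series, at 11089600 and 10123058 counts. DESeq2 called 2 of the 5 genes lower, the fit without a filter on low counts called 3, and the fit of only these 2 groups called 1. Against DuxKO, the same libraries gave 0 of 5 calls, with 21.4% of all tested genes called, 0 genes at an unadjusted p below 0.05 and 1 call by DESeq2. The interaction of Pramel7 overexpression and Dux loss was called for 0 of 5 genes (7.5% of all tested genes), with 0 at an unadjusted p below 0.05 and 0 by DESeq2. Its fit gave no usable value for Usp17lb, Usp17lc and Usp17ld, which had no counts in either Dux-deficient group. For Usp17le the fit gave a log2 interaction of 2.11 (SE 2.28, adjusted p = 0.644). DuxKO had no Usp17le counts, so the size of that value depends on the prior count and is no measurement.

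WT cells of this table had more Usp17l counts than those of the genotype table, which were not tested against each other. Loss of Dux lowered Usp17le here, from 14, 11, 14 and 0 counts in WT to 0 and 0 in DuxKO (at least 2.75-fold, adjusted p = 0.0467). That was 1 of 5 genes, against 8.91% of all tested genes called lower. The call is lost when WT replicate 3, 4 or 5 or either DuxKO library is left out (adjusted p = 0.0644 to 0.246), and when just these 2 groups are fitted. WT replicate 6 had no Usp17le counts, so the groups overlap. The other Usp17l genes had 0 to 6 counts in each WT library and 0 in DuxKO.

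P7KO cells did not differ from WT by the test, and Pramel7 itself was near the floor in both groups. Usp17le had 22 and 20 counts in P7KO, a ratio of 1.77 (1.11 to 2.80) with adjusted p = 0.554, and Usp17lc had 5 and 6, a ratio of 2.58 (0.912 to 7.84). Calls were 0 of 5, with 9.48% of all tested genes called, 0 genes at an unadjusted p below 0.05 and 0 by DESeq2. Tcstv3 had 4 and 3 counts against 0 to 1 in the 4 WT libraries, and Tdpoz4 had 3 and 4 against 0 to 2. These counts are near the floor, and neither gene was tested.

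The time course follows the families in CtbpDKO cells. Ctbp2 counts rose from 1184 and 1328 on day 0 to 11119 and 11231 on day 3, were 8466 and 6774 on day 9, and were back at 866 to 1646 on days 12 and 18, while Ctbp1 stayed at 0 to 4. The mean of each family's summed CPM was lowest on day 9, and on day 18 it was above those of days 9 and 12. No Tdpoz or Tcstv gene was called between day 12 and day 18, and the Tcstv sum had 1.14 and 0.776 CPM on day 12 and 1.19 and 2.46 CPM on day 18. The sum of the Usp17l genes, as a percentage of its mean CPM on day 0, was 80.7% on day 3, 24.5% on day 9, 30.1% on day 12 and 110% on day 18. For the Tdpoz genes the sums were 33.2%, 12.95%, 14.03% and 62.5%, and for the Tcstv genes 34.6%, 14.1%, 23.6% and 44.9%. Whether the families differed from each other in this course was not tested.

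All 10 genes had counts on day 0 of the course, as in the other CtbpDKO cells, where Tdpoz1 had only 0 and 1. Mean sums were 16.9 CPM on day 0 and 19.6 CPM in CtbpDKO for the Usp17l genes. They were 2.19 and 0.71 CPM for the Tdpoz genes and 4.06 and 1.39 CPM for the Tcstv genes. On day 0 Usp17le had 158 and 88 counts, Usp17lc 99 and 98, Usp17lb 55 and 44, Usp17ld 49 and 55 and Usp17la 40 and 25. Tcstv3 had 94 and 63, Tcstv1 9 and 4, Tdpoz4 37 and 39, Tdpoz1 5 and 4 and Tdpoz3 4 and 4. These tables were scaled separately, and levels were not tested between them.

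On day 3 the family means lay apart. Tcstv3 fell to 20 and 29 counts, a ratio of 0.331 (0.235 to 0.459) and a log2 fold change of -1.60 (SE 0.43, adjusted p = 0.0487). It was 1 of 8 tested genes called lower, against 2.59% of all 20612 tested genes. The call was lost when any of the 4 libraries was left out (adjusted p = 0.0594 to 0.319) and in the fit of only these 2 days. Tdpoz4 had 11 and 16 counts on day 3, a ratio of 0.377 (0.233 to 0.591) that did not pass (adjusted p = 0.295). Usp17le had 112 and 130 counts, a ratio of 1.04 (0.870 to 1.25), and its day 0 libraries lay on either side.

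From day 3 to day 9 Usp17lc went from 41 and 71 to 21 and 12 counts (log2 fold change -2.10, SE 0.41, adjusted p = 0.0288). Usp17le went from 112 and 130 to 54 and 40 counts (-1.70, SE 0.36, adjusted p = 0.0372). These 2 of 8 genes were called lower, against 0.592% of all tested genes. The call of Usp17lc was lost without day 3 replicate 2 or either day 9 library, and that of Usp17le without any 1 of the 4. Usp17lb, Usp17ld, Usp17la and Tcstv3 had ratios of 0.309 to 0.427 with adjusted p = 0.108 to 0.331.

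The comparison of day 9 with day 0, added after the data were seen, spans the whole fall. Of 8 tested genes 6 were called lower, against 3.73% of all tested genes, and the median log2 fold change was -2.23. Tcstv3, at 12 and 12 counts on day 9, had a ratio of 0.129 (0.0804 to 0.199, adjusted p = 0.00164). Usp17lc had a ratio of 0.142 (0.0948 to 0.205, adjusted p = 0.000731). Tdpoz4, at 6 and 8 counts, had a ratio of 0.156 (0.0813 to 0.278, adjusted p = 0.0468), and Usp17lb 0.179 (0.106 to 0.289, adjusted p = 0.00887).

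Smaller falls were seen for Usp17ld, at 17 and 14 counts on day 9 and a ratio of 0.252 (adjusted p = 0.0187), and for Usp17le, with a ratio of 0.323 (adjusted p = 0.0119). Usp17la, at 16 and 14 counts, had a ratio of 0.390 and did not pass (adjusted p = 0.123). Tcstv1 had 5 and 0 counts, and Tdpoz1 and Tdpoz3 had none. Leaving out 1 library left 2 calls without day 0 replicate 1, day 9 replicate 1 or day 9 replicate 2, and 4 without day 0 replicate 2. The 2-cell list had 27 of 42 genes called lower, with a median of -2.32.

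**Figure D3:**
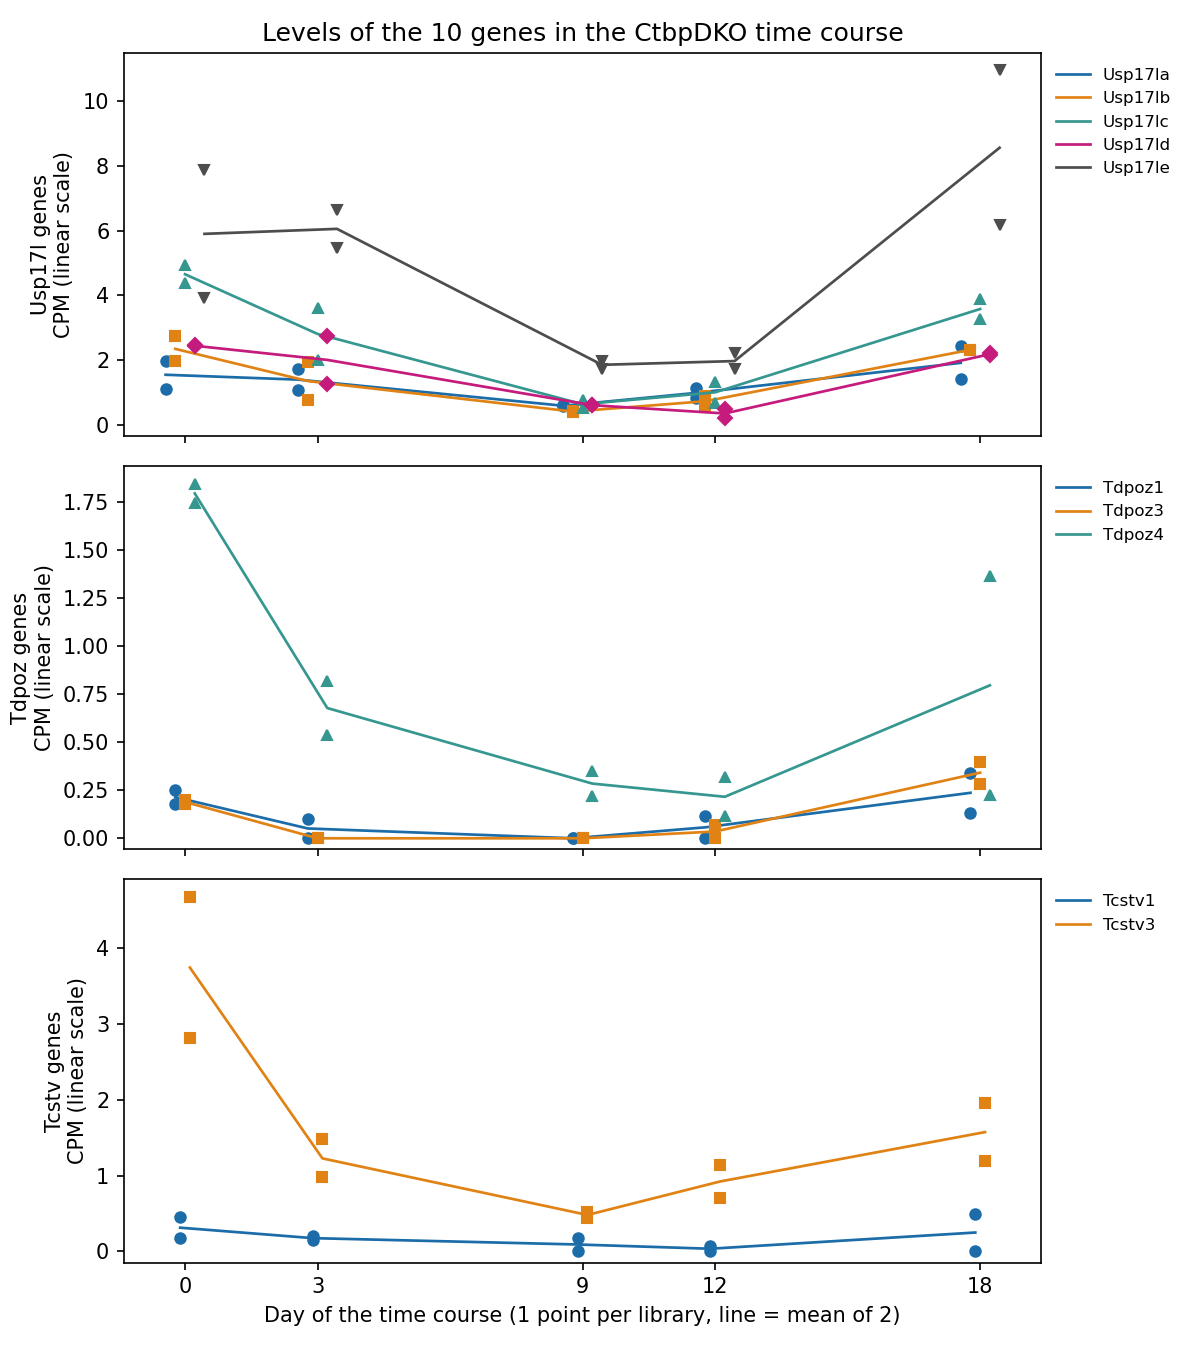
Level of each gene in CPM on a linear scale (y axis, a different range per family) against the day of the time course (x axis), with 1 point per library and lines through the means of 2 libraries. All lines are lowest on day 9 or 12, and Usp17le spans 6.17 to 10.9 CPM on day 18.

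Between day 9 and day 12, when Ctbp2 counts dropped again, no gene of the 8 was called by edgeR's quasi-likelihood test (3.84% of all tested genes were called), with 0 at an unadjusted p below 0.05 and 0 by DESeq2. On day 12 Usp17le had 39 and 49 counts, Usp17lc 12 and 38, Usp17lb 16 and 16, Usp17la 20 and 24 and Tcstv3 20 and 20. Usp17ld had 4 and 14 counts, its lowest mean of the course at 0.36 ± 0.19 CPM.

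Usp17le and Usp17ld rose between day 12 and day 18. Usp17le reached 109 and 329 counts, a ratio of 4.78 (3.80 to 6.09) and a log2 fold change of 2.14 (SE 0.35, adjusted p = 0.0116). Usp17ld reached 38 and 67 counts, a ratio of 5.61 (3.38 to 9.83) and a log2 fold change of 2.51 (SE 0.50, adjusted p = 0.0342). They were 2 of 8 genes called higher, against 0.64% of all tested genes. Usp17lc, at 69 and 98 counts and a ratio of 3.21, just missed (adjusted p = 0.0542).

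Day 18 replicates differed. Usp17le had 6.17 and 10.9 CPM in its 2 libraries, Tdpoz4 had 4 and 41 counts, Tcstv1 0 and 15, and Tcstv3 21 and 59. Leaving out a library ended the call of Usp17ld in each of 4 cases and that of Usp17le in 3, all but the one without day 18 replicate 1. In the fit of only these 2 days 0 genes were called. Without a filter on low counts 4 genes were called.

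Day 18 against day 0 gave 0 of 8 calls by edgeR's quasi-likelihood test, where 0.514% of all tested genes were called, with 1 gene at an unadjusted p below 0.05 and 0 calls by DESeq2. That gene was Tcstv3, at a ratio of 0.453 (0.342 to 0.597, adjusted p = 0.247). Usp17le stood at 1.58 (1.35 to 1.86), Usp17lb at 0.997 (0.754 to 1.32) and Tdpoz4 at 0.527 (0.356 to 0.771). Sums of fibroblast markers were 9.96 to 11.8 CPM on day 0, 5.45 to 7.46 on day 9 and 18.9 to 20.5 on day 18. Those of primitive endoderm markers were 11.2 CPM, 11.5 CPM and 24.0 to 32.6 CPM. Their part in the result was not tested.

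How the Usp17l counts divide among the copies bears on whether the copies move as one, as far as reads were assigned to the right copy. Usp17le held 33.9% of the family's counts in CtbpDKO (95% Wilson interval 31.4% to 36.4%), 34.3% in P7OE (30.1% to 38.7%) and 34.6% on day 0 (31.2% to 38.2%). Its share was 44.5% on day 3, 44.98% on day 9, 37.9% on day 12 and 47.7% on day 18, and 50.6% and 57.5% in WT and P7KO of the Pramel7 table. The intervals cover counting error only, and libraries of a group could lie farther apart, as on day 0 with 39.4% and 28.4% and on day 18 with 38.7% and 51.6%. The spread was widest in WT of the Pramel7 table, where Usp17le had 70%, 37.9%, 77.8% and 0% in replicates 3 to 6, of 10 to 29 Usp17l counts each, and Usp17lb had 60% in replicate 6. In CtbpDKO the libraries were close, at 34.2% and 33.6%.

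Usp17lc came next in CtbpDKO at 23.7% (21.5% to 26.1%) and on day 0 at 27.7% (24.5% to 31.1%), and had 18.2% in P7OE (15.0% to 22.0%) and 15.8% on day 9 (11.5% to 21.3%). Usp17lb had 15.4% in CtbpDKO and 21.9% in P7OE. Usp17la was the smallest part in CtbpDKO, at 11.8%, and Usp17ld in P7OE, at 10.6%. Shares of groups in different tables were not tested against each other. Among counts of 1 to 10 in the tables, 72.8%, 67.0% and 76.3% were even, so that counts appear to come in pairs, and counting intervals are then too narrow.

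**Figure D4:**
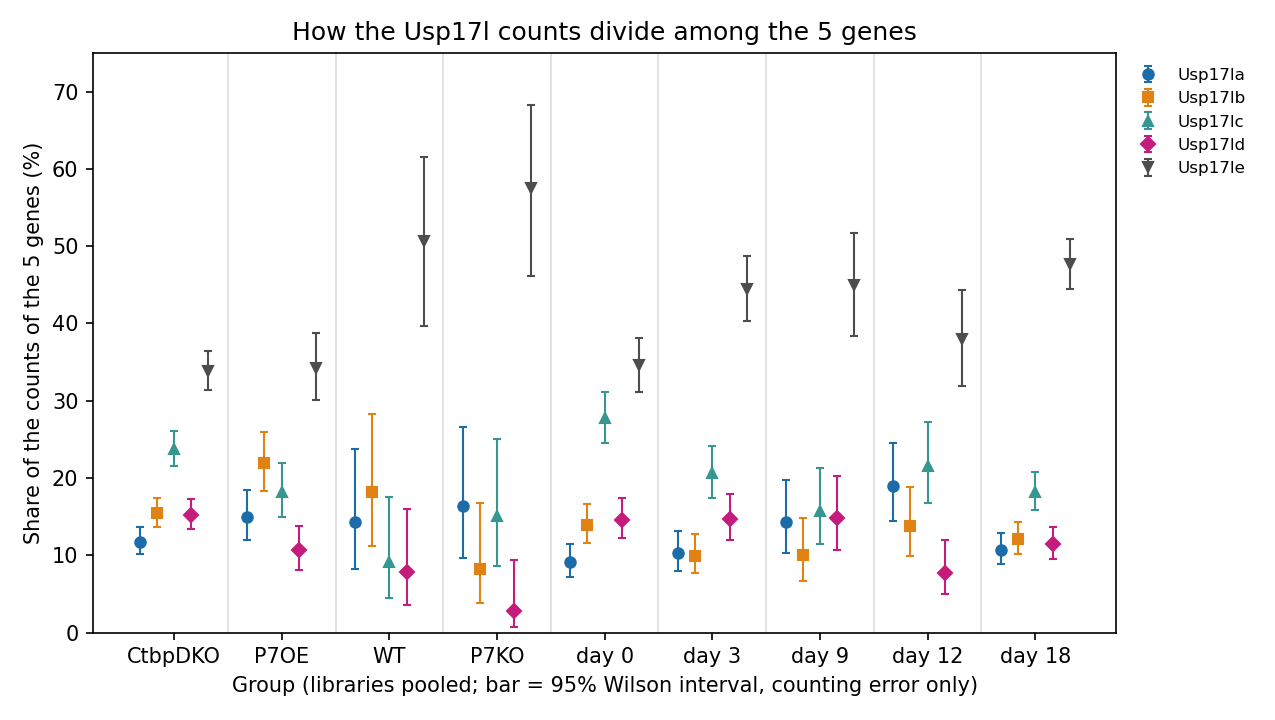
Share of the counts of the 5 Usp17l genes that falls on each gene (y axis, percent), by group (x axis, libraries of a group pooled), with 95% Wilson intervals for counting error. Usp17le holds the largest pooled share in all 9 groups, from 33.9% in CtbpDKO to 57.5% in P7KO.

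Nearby genes were looked at because the copies are clustered. The span from Usp17ld to Usp17la on chromosome 7 is 1612.6 kb long and holds 112 other annotated genes. Of 14 that were tested, 1 was called higher in CtbpDKO against WT and 0 lower in Ctbp_DuxTKO against CtbpDKO, beside 14.7% and 4.54% of all tested genes. The one was Trim12a, named after its values were seen, at 29 and 9987 counts in CtbpDKO. The span from Tcstv1 to Tcstv3 on chromosome 13 is 424.9 kb long and holds 26 other genes. There 6 of 13 tested genes were called higher in CtbpDKO, and all 6 were called lower in Ctbp_DuxTKO, beside the same shares of all tested genes. Genes that passed the filter only through CtbpDKO, such as AF067061, were favoured in advance for both calls. For such genes the shares are not a like comparison. Family copies were left out by symbol alone, so these 6 may include relatives of the Tcstv genes under other symbols. Of the 6, 4 are on the 2-cell list, which was chosen with results of these data known. They include AF067061, with 57 and 45 counts in CtbpDKO and 0 in WT and in Ctbp_DuxTKO. In the Tdpoz span on chromosome 3, 0 of 4 other genes passed the filter.

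Among relatives, Tdpoz5 had 12 and 32 counts in CtbpDKO and 0 in WT (at least 6.35-fold, adjusted p = 0.0151) and AF067063 had 16 and 22 against 0 (at least 5.56-fold, adjusted p = 0.0133). Tdpoz5 had 0 to 3 counts and AF067063 had 0 in the other genotype groups, so these calls were favoured in advance. Both were at 0 on day 9 of the time course, from 16 and 20 counts of Tdpoz5 and 35 and 9 of AF067063 on day 0. Tdpoz2, with at most 8 counts, and Gm4981, with at most 9, were too low to test. Tdpoz5 had 11 and 9 counts on day 3, 0 and 4 on day 12 and 7 and 15 on day 18.

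Over the 16 group means of all tables, each table centred on its own mean, the family sums moved together, with r = 0.89 between Usp17l and Tdpoz, 0.91 between Usp17l and Tcstv and 0.95 between Tdpoz and Tcstv. These correlations describe points that share libraries and depth within a table. Of 15899 other genes compared in the same way, those most like the Usp17l sum were Eif4a3l1 (r = 0.98), Zscan4c (0.97), Gm4027 (0.97), Gm21761 (0.97) and Gm21312 (0.97). Those most like the Tdpoz sum were D13Ertd608e, Gm1995, Gm428, Gm4971 and Gm21818, with r of 0.96 to 0.97. For the Tcstv sum they were AF067061 (0.97), Gm1995 (0.97), BB287469, Gm16478 and Eif4a3l1 (0.96).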

How the data were processed

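RNA was sequenced from 34 libraries, and 6 bisulfite libraries were not analysed here. The authors deposited raw counts per gene symbol, with no normalization, in 3 tables, and a further genotype table with the same values was not used. Trim Galore, HISAT2, featureCounts and build mm10 appear in the submitters' processing notes, without versions. Per the labels' protocols, libraries were stranded. How reads shared between copies were assigned is not given in the sources used here, so counts of single Usp17l, Tdpoz and Tcstv copies are uncertain.

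Counts were tested with edgeR 4.0.16 in R 4.3.3 (quasi-likelihood F test, filterByExpr with a minimum of 10 counts, TMM scaling, prior count 0.125), all libraries of a table in 1 fit, with Benjamini-Hochberg adjustment over all tested genes and a threshold of 0.05. SE is the log2 fold change divided by the square root of F. Where a group was at 0, a fold is a lower bound against 3 counts per library. Otherwise it is a ratio of pooled counts per scaled library, with an exact 95% counting interval. Reads carry no molecular identifiers, so intervals and floors cover counting error only. Alternatives were RLE scaling, DESeq2 1.42.0, no filter, prior count 2, fits of only the groups compared, a replicate block and leaving out each library. The test was checked on simulated data.

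The 10 genes, the list of 52 genes of the 2-cell program (47 in the tables, 41, 30 and 42 tested) and the marker lists were chosen with earlier results of these data known. The rule named all 10 genes, targeted genes where a result turns on them, Tdpoz2, Tdpoz5, AF067061, AF067063, Gm4981, the Zscan4 genes and, per family, the 5 genes with the most similar group means (log2 CPM with prior count 2, at least 50 counts in a group). Coordinates and promoters come from RefSeq tables of GRCm38.p6, of which mm10 is the UCSC name. All 10 symbols matched the gene table and 6 the promoter table. Replicate numbers did not pair the libraries: correlations of same-numbered deviations were -0.098 to 0.092. Each column matched 1 labelled sample.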

Additional observations from a re-analysis of the deposited data

Results flagged for a closer look

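In the 4 WT libraries of the Pramel7 table, 3 genes had 1 library far from the other 3. Usp17ld had 6 counts (0.241 CPM) in replicate 4 and 0 in the others. Tcstv1 had 2 counts (0.0757 CPM) in replicate 3 and 0 in the others, and Tcstv3 had 1 count (0.0402 CPM) in replicate 4 and 0 in the others. These are 3 of the 11 group values examined in this way. Chance marks about 1 in 20 where values vary smoothly, a rate that does not apply to these 3, since with 0 in 3 libraries any count in the other is marked.

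The effect of Ctbp loss on Tcstv3 passed the interaction test of edgeR between cells with and without Dux (adjusted p = 0.0434). The fitted log2 interaction was -11.07, and -4.58 with a prior count of 2, so with WT and Ctbp_DuxTKO at 0 its size is set by the prior count. Counts were 0 and 0 in WT, 45 and 23 in CtbpDKO, 0 and 2 in DuxKO and 0 and 0 in Ctbp_DuxTKO. Without DuxKO replicate 2 the adjusted p was 1, and under the other leave-outs that ended the call it was 0.0728 to 0.117.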

How the results depend on the processing

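No called gene changed direction under any alternative run. RLE scaling changed no call. A prior count of 2 does not enter the test and moved only the printed log2 fold changes, such as that of Usp17lc in CtbpDKO against WT, from 6.96 to 5.55. The number of the 10 genes called moved by over 1.5 times in the following cases, in which the cause was not tested. DESeq2 called 3 genes in CtbpDKO against WT, 3 in Ctbp_DuxTKO and 3 in DKO_Dppa2_KO against CtbpDKO, 3 for the interaction of Ctbp and Dux loss, 1 for that of Ctbp and Dppa2 loss, 3 in P7OE against WT, 1 in DuxKO_P7OE against DuxKO and 2 against P7OE. With no filter on low counts, which tests more genes, the calls were 3 for the interaction of Ctbp and Dux loss, 1 in DuxKO_P7OE against DuxKO, 3 against P7OE, 4 in day 9 against day 3 and 4 in day 18 against day 12. Fits of only the groups compared, which use fewer samples, called 0 in DuxKO against WT of the Pramel7 table, 1 in DuxKO_P7OE against P7OE, 0 in day 3 against day 0, 1 in day 9 against day 3 and 0 in day 18 against day 12. Only WT libraries 5 and 6 gave 0 calls in DuxKO against WT. The replicate number as a block gave 0 calls for the interaction of Ctbp and Dux loss, 4 in DuxKO_P7OE against P7OE, 0 in day 3 against day 0 and 1 in day 9 against day 3. Leaving out 1 library gave 0 to 1 calls for the interaction of Ctbp and Dux loss, 0 to 1 in DuxKO against WT of the Pramel7 table, 1 to 5 in P7OE against WT, 0 in each case in day 3 against day 0, 0 to 1 in day 9 against day 3, 0 to 1 in day 18 against day 12 and 2 to 4 in day 9 against day 0. A group left with 1 library is then assumed to vary like the others. The low counts limit what can be said of Tdpoz1, Tdpoz3 and Tcstv1, and of all 10 genes in the Ctbp-intact groups of the genotype table.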
